A study of Homo sapiens with 90 samples.

Results

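The BCL2 family decides at the mitochondrial outer membrane whether a cell lives or dies, and 10 of its genes were followed here through targeted drugs and the transcription inhibitor THZ1. The genes were BMF, BCL2L11 (BIM), BBC3 (PUMA), PMAIP1 (NOXA), BIK, BCL2, BCL2L1 (BCL-X), MCL1, BAX and BAK1. They were chosen by symbol, and each matched 1 of the 53893 gene IDs of the table. All 10 had enough counts to be tested within each of 6 cell lines. Across lines 9 were tested, because BIK was under 1 CPM (counts scaled to a library total of 1000000) in too many A375 libraries.

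Every line received its own kinase inhibitor, called the targeted drug here. A375 melanoma cells were given vemurafenib, a BRAF inhibitor, at 1 uM. Of the lung cancer lines, A549 was given GSK1120212 (trametinib, 200 nM), which blocks MEK, H3122 was given crizotinib (250 nM), which blocks ALK, and PC9 was given erlotinib (1 uM), which blocks EGFR. N87 gastric cancer cells were given lapatinib, which blocks EGFR and ERBB2, at 100 nM, and RT112 bladder cancer cells were given BGJ398, which blocks FGFR kinases, at 1 uM. THZ1 binds CDK7, and also CDK12 and CDK13, covalently, and these kinases drive transcription by RNA polymerase II. Its dose was 25 nM in N87, 50 nM in A375 and H3122, 100 nM in PC9 and RT112, and 150 nM in A549. In each line 3 libraries were made from each of 5 arms, which were the combination of both drugs for 48 h, the targeted drug for 7 days, the targeted drug for 48 h, THZ1 for 48 h, and 0.1% DMSO for 48 h. Because each line has its own drug and its own THZ1 dose, line, drug and dose cannot be told apart.

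The family falls into 3 roles. BAX and BAK1 encode the effectors, which open pores in the mitochondrial outer membrane and release cytochrome c. BCL2, BCL2L1 and MCL1 encode guardians that hold the effectors and their activators in check. The BH3-only proteins BIM, BMF, PUMA, NOXA and BIK sense stress or lost growth signals and bind the guardians. BIM protein is degraded after ERK phosphorylation, the BIM and PUMA genes are known FOXO3 targets, and NOXA, PUMA and BAX are known p53 targets. MCL1 mRNA and protein are both short-lived. Gene-level counts do not separate the isoforms of BIM, BCL-X or MCL1, some of which have opposite effects on survival, and say nothing of protein.

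BMF and BCL2L11 were the members called higher in all 6 lines under the targeted drugs, so the 250 bases before their start sites are shown. They were taken from RefSeq on GRCh38.p14, where BCL2L11 lies on the plus strand of chromosome 2 and BMF on the minus strand of chromosome 15. The stretches are chr2:111120664-111120913 and chr15:40108880-40109129, and capitals mark the letters GTAAACA, a FOXO motif.
BCL2L11: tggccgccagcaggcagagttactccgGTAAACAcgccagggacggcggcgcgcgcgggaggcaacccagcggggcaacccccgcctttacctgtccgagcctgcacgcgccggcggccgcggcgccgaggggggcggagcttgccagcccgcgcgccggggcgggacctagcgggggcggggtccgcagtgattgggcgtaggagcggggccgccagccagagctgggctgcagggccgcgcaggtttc
BMF: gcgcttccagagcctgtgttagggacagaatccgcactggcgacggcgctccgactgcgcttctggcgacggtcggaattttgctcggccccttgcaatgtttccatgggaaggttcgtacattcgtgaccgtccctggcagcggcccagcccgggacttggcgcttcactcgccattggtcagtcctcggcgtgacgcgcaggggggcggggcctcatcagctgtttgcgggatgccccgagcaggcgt
Windows of 300 bases, 250 before to 50 after the start, were searched on both strands for FOXO (GTAAACA), AP-1 (TGANTCA) and ETS (CCGGAAGT) motifs. BCL2L11 held the FOXO letters from position -223, BBC3 the AP-1 letters from position -113 and one window of BCL2L1 the ETS letters from position 10, counted from the start site. The windows of BMF, BCL2, PMAIP1, BAX and BAK1 held none of the 3. The letters were present in 3.42%, 7.71% and 4.14% of all 35116 windows, for FOXO, AP-1 and ETS in that order. Sequences of MCL1 and BIK were not used here. Each match is a description of letters and not a binding site.

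Libraries held 5641035 to 14361011 expected counts each. The nearest neighbour of each of the 90 libraries was of the same line and arm. SOX10 and other melanocyte markers summed to 725 to 1810 CPM in A375, urothelial markers to 1050 to 2610 CPM in RT112 and lung markers, mainly NKX2-1, to 163 to 716 CPM in H3122. The same 4 lung markers stayed at or under 2.22 CPM in sum in A549 and 1.64 CPM in PC9, and gastric and intestinal markers at 2.38 to 16.4 CPM in N87, so the markers of the labelled tissue were near absent in these 3 lines. Markers of other tissues were present in some, with gastric and intestinal markers at 260 to 1060 CPM in A549 (VIL1 up to 566 CPM) and urothelial markers at 164 to 310 CPM in A549 and 89.8 to 416 CPM in PC9. Epithelial keratins were high in every line but A375. One A375 library of the 48 h vemurafenib arm is labelled as lung, but was closest to its own arm. The labels do not tell whether the 3 libraries of an arm were grown apart, and within-line p-values therefore reflect library spread that could be technical.

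In DMSO the lines differed most in BMF, whose mean in H3122, 261.7 ± 8.06 CPM (SD, n = 3 libraries, as for every mean here), was 256 times that in A549, 1.02 ± 0.228 CPM. BIK spanned 65.7 times, at 44.3 ± 1.64 CPM in H3122 and 0.675 ± 0.397 CPM in A375. MCL1 was also highest in H3122, at 1922 ± 22.5 CPM, and lay between 225.9 ± 15.8 CPM in PC9 and 474.4 ± 132.2 CPM in RT112 elsewhere. H3122 was thus the line with the highest DMSO level of BMF, BIK, BBC3 and MCL1 and the lowest of BCL2.

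The other members varied less between untreated lines. BCL2L1 was highest in N87, at 353.2 ± 7.71 CPM, and lowest in A375, at 72.9 ± 1.08 CPM, with A375 and RT112 overlapping. PMAIP1 was highest in N87 at 74.3 ± 1.84 CPM, and A549, PC9 and RT112 shared the lowest levels, from 21.6 to 24.8 CPM. BAK1 was highest in RT112, at 93.4 ± 5.71 CPM, against 16.8 ± 0.638 CPM in A549. BCL2L11 spanned 2.82 times (27.2 CPM in A549, 9.67 CPM in A375) and BAX, the least variable member, 1.81 times (101.6 CPM in A549, 56.2 CPM in N87). BCL2, from 8.75 CPM in A375 to 1.76 CPM in H3122, was the scarcest guardian. Per kilobase of the median coding transcript, MCL1 and BAX were among the top 3 of the 10 genes in each line, BCL2L1 was among the top 4, and BCL2 was in place 9 or 10. BMF could not be placed per length, since its transcripts differ too much in length.

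**Figure D1:**
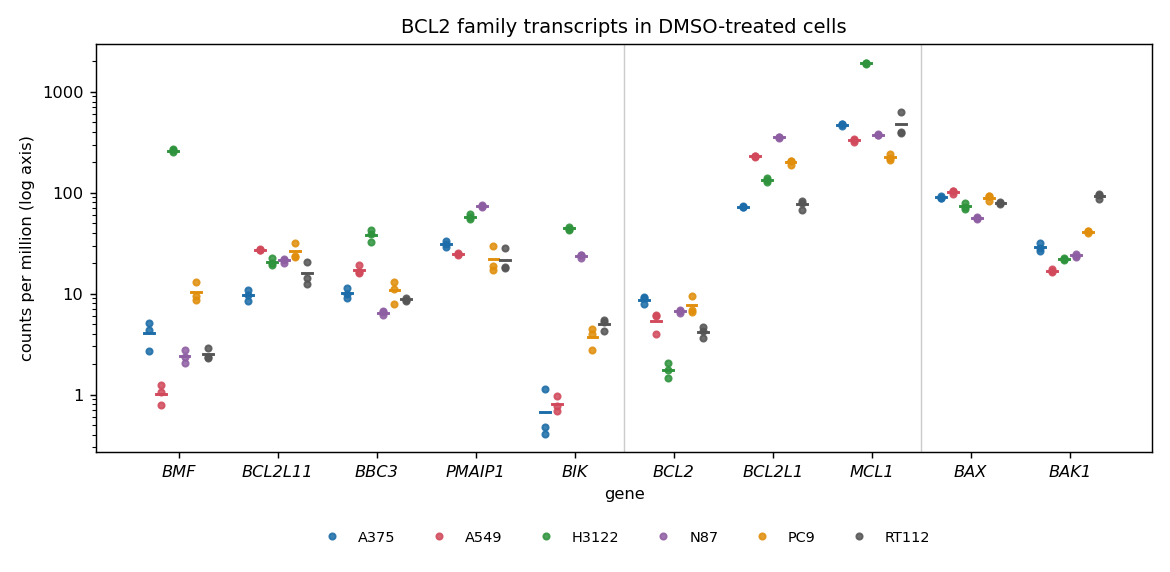
CPM on a log axis for the 10 genes in the DMSO libraries of 6 lines, with a point per library and a bar at the mean of 3. H3122 is the highest line for BMF (261.7 CPM, against 10.4 CPM in PC9, the next), MCL1 (1922 CPM, against 474.4 CPM in RT112) and BIK (44.3 CPM, against 23.7 CPM in N87).

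The targeted drugs at 48 h were first set against DMSO, to ask how the family answered to the loss of kinase signalling. Across the 6 lines BMF and BCL2L11 rose and BCL2 and BAK1 fell, which is 4 of 9 members against 37.1% of all 11875 genes. Within lines 47 of 60 gene and line pairs were called (25 higher, 22 lower), against 66% of all pairs (33% higher, 33% lower). The median log2 change of the 9 members was -0.08, and that of all genes 0.05. Calls are edgeR quasi-likelihood tests at a Benjamini-Hochberg adjusted p under 0.05, and ± after a log2 change is its SE. In bulk RNA without a spike-in, fewer cells and less RNA per cell cannot be told apart, and levels are relative to the other transcripts.

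BMF, a sensor known for binding the cytoskeleton until stress frees it, changed most. Vemurafenib-treated A375 libraries held 132, 151 and 148 CPM, against 4.37, 2.73 and 5.18 CPM in DMSO. Trametinib-treated A549 libraries held 18.9, 15 and 19.7 CPM, against 1.24, 0.783 and 1.05 CPM in DMSO. The drug and DMSO libraries lay far apart in both lines. In RT112 BGJ398 gave 43.8, 51.0 and 48.9 CPM, against 2.36, 2.31 and 2.87 CPM. In N87 lapatinib gave 23.7, 16.2 and 18.7 CPM, against 2.78, 2.04 and 2.36 CPM, and in PC9 erlotinib gave 42.1, 47.7 and 40.4 CPM, against 8.60, 9.52 and 13.1 CPM. H3122, which had the most BMF to begin with, changed least. Its crizotinib libraries held 471, 479 and 509 CPM, against 253, 264 and 268 CPM in DMSO. The log2 change across lines was 3.21 ± 0.60 (adjusted p = 0.000483, higher in 6 of 6 lines), and within lines it ran from 0.79 ± 0.05 in H3122 to 5.05 ± 0.11 in A375. It stayed called without any 1 line, at 2.68 to 3.79. The change differed between lines (edgeR F test on the 90 libraries, adjusted p = 1.32e-35), as it did for 10 of 10 members, against 74.8% of all genes.

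BCL2L11, which encodes the activator BIM, rose by 0.82 ± 0.23 on the log2 scale across lines (adjusted p = 0.00732) and was called in 6 of 6 lines. A549 stood out, with 86.9, 87.1 and 84.9 CPM under trametinib, against 27.4, 27.1 and 27.1 CPM in DMSO, a log2 change of 1.68 ± 0.07 (adjusted p = 1.8e-14). In H3122 the drug libraries held 35.8, 32.1 and 33.7 CPM, against 19.9, 19.4 and 22.4 CPM. In PC9 they held 38.9, 35.1 and 34.0 CPM, against 23.0, 23.8 and 32 CPM, and in RT112 37.0, 26.1 and 24.5 CPM, against 20.7, 14.4 and 12.5 CPM. Drug and DMSO libraries did not overlap in these lines. A375 held 14.1, 14.9 and 13.1 CPM, against 10.8, 9.63 and 8.55 CPM, a log2 change of 0.55 ± 0.22, beside 0.59 ± 0.10 in PC9. The rise was smallest in N87, at 26.6, 29.5 and 27.5 CPM, against 21.6, 20.2 and 22.3 CPM (0.285 ± 0.119). Libraries did not overlap in A375 and N87 either. The share of all genes separated in this way was not counted, here or wherever groups are said not to overlap, while 66% of all gene and line pairs were called. The A375 call was lost without any of DMSO replicates 3 and 4 or vemurafenib replicates 1 and 3 (log2 change 0.45 to 0.55). The N87 call was lost without any 1 of the 3 lapatinib libraries, the 3 DMSO libraries, combination replicate 3 or THZ1 replicate 2 (0.24 to 0.31).

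**Figure D2:**
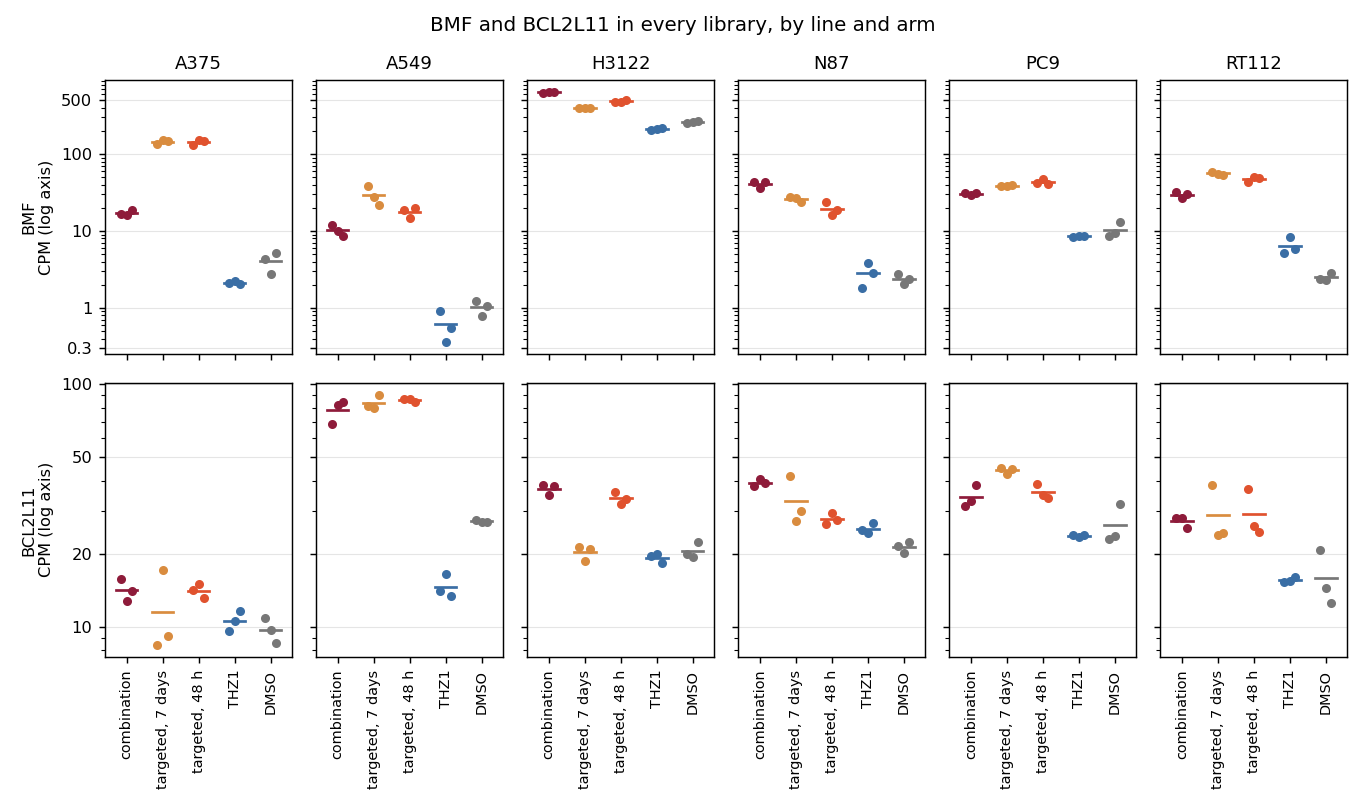
BMF (top) and BCL2L11 (bottom) in every library, as CPM on a log axis, by line and arm, with a bar at the mean of 3 libraries. All targeted 48 h libraries of a line lie above all of its DMSO libraries for both genes, by the widest margin for BMF in A375 (132 to 151 CPM against 2.73 to 5.18 CPM). The share of all genes separated in this way was not counted.

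Of the remaining BH3-only genes, BBC3 was higher in 6 of 6 lines, BIK in 4 and PMAIP1 in 1. BBC3, known to bind all of the guardians, was called higher in 4 of 6 lines, most in A549, where trametinib libraries held 40.5, 46.0 and 45.9 CPM, against 15.9, 16.3 and 19.2 CPM in DMSO. N87 followed, with 13.5, 13.0 and 13.4 CPM under lapatinib, against 6.62, 6.80 and 6.09 CPM. The A375 call (0.33) was lost without DMSO replicate 3 or vemurafenib replicate 4 (0.27 to 0.32), and the PC9 call (0.48) without DMSO or erlotinib replicate 2 (0.30 to 0.33). Across lines the BBC3 change of 0.66 ± 0.31 missed the threshold (adjusted p = 0.0951), although it passed without A375 (0.68, adjusted p = 0.0394). BIK, an endoplasmic reticulum BH3-only protein, was called higher in 4 lines. It reached 12.2, 13.4 and 14.6 CPM in trametinib-treated A549, against 0.773, 0.685 and 0.963 CPM in DMSO, a log2 change of 4.04 ± 0.17 (adjusted p = 9.9e-15). H3122 went the other way, at 32, 34.7 and 31.6 CPM under crizotinib and 44.2, 42.8 and 46.1 CPM in DMSO.

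PMAIP1 encodes NOXA, which binds MCL1 and sends it for degradation. It fell in 3 lines and was not called higher in any. In A375 it fell to 13.3, 6.51 and 4.84 CPM under vemurafenib, against 29.3, 31.3 and 32.9 CPM in DMSO (log2 change -2.05 ± 0.28, adjusted p = 2.6e-06). In A549 it stood at 12.5, 12.5 and 13.3 CPM under trametinib and 25.4, 24.2 and 24.8 CPM in DMSO, and in N87 at 37.4, 46.1 and 44.2 CPM under lapatinib and 76.3, 74.0 and 72.7 CPM in DMSO. Groups did not overlap in these lines. RT112 had a log2 change of 0.30 ± 0.20, which did not pass (adjusted p = 0.207), at 40.4, 25.5 and 22.8 CPM under BGJ398, against 28.2, 18.1 and 18.3 CPM in DMSO. Replicate 1 was the highest of both arms, and RT112 was called higher in 4 alternative settings, among them without DMSO replicate 1 (0.55).

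Among the guardians, BCL2 fell in 4 lines, BCL2L1 went both ways and MCL1 rose in 2 lines. BCL2 fell across lines by 1.08 ± 0.33 on the log2 scale (adjusted p = 0.0128), with calls in A375, A549, N87 and PC9, and the call was lost without A549 (-0.76). In A549 it stood at 1.18, 0.269 and 0.607 CPM under trametinib, against 6.18, 4.01 and 5.95 CPM in DMSO. In PC9 it stood at 1.37, 1.77 and 2.18 CPM under erlotinib, against 9.46, 6.52 and 6.93 CPM. These are low levels, and BCL2 had 2 to 132 counts per library over the 90 libraries. BCL2L1 fell in A549 (142, 148 and 146 CPM, against 229, 226 and 231 CPM), A375 (55.0, 58.5 and 60.8 CPM, against 71.8, 72.9 and 74.0 CPM) and N87 (log2 change -0.25), and rose in RT112 (107, 111 and 112 CPM, against 67.1, 79.6 and 82.6 CPM). The smaller calls were lost without single libraries: PC9 (-0.11) without DMSO replicates 2 or 3 or erlotinib replicate 4 (-0.09 to -0.08), and H3122 (0.17) without replicates 2 or 4 of either arm (0.15 to 0.17).

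MCL1 rose in PC9, at 257, 248 and 253 CPM under erlotinib, against 212, 223 and 243 CPM in DMSO (log2 change 0.29 ± 0.06, adjusted p = 0.00024). It also rose in RT112, at 1127, 732 and 705 CPM under BGJ398, against 627, 394 and 402 CPM, by 0.69 ± 0.19 (adjusted p = 0.0037), or 0.42 without BGJ398 replicate 1. Replicate 1 was the highest RT112 library in both arms. In A375 the vemurafenib libraries held 701, 348 and 360 CPM, against 474, 461 and 484 CPM in DMSO. That spread left no call (-0.02), and without vemurafenib replicate 1 the gene was called lower (-0.43, adjusted p = 0.0367). In the remaining lines the drug libraries lay above DMSO without a call. A549 held 369, 370 and 368 CPM under trametinib, against 343, 320 and 333 CPM, H3122 held 2241, 2284 and 2194 CPM under crizotinib, against 1917, 1902 and 1946 CPM, and N87 held 429, 467 and 454 CPM under lapatinib, against 377, 372 and 380 CPM in DMSO. These log2 changes were 0.17, 0.12 and 0.16, and each was called higher in some alternative settings, among them the fit of only the arms compared (0.18, 0.13 and 0.18). All drug libraries thus lay above all DMSO libraries in 5 of 6 lines, and 2 of these lines were called. How many of all genes separate in this way was not counted, while 33% of all gene and line pairs were called higher. Across lines the log2 change of MCL1 was 0.32 ± 0.18 (adjusted p = 0.172).

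The effectors were lower in most lines. BAX fell in 5 lines and rose in A375, where vemurafenib libraries held 114, 110 and 118 CPM, against 88.9, 92.3 and 89.5 CPM in DMSO. The largest fall was in RT112, at 53.8, 52.5 and 52.0 CPM under BGJ398, against 79.5, 76.8 and 81.5 CPM (log2 change -0.75 ± 0.05, adjusted p = 8.8e-10), with A549 (-0.70), PC9 (-0.62) and N87 (-0.48) close. The H3122 call (-0.23) was lost without crizotinib replicates 3 or 4 or DMSO replicates 2 or 3 (-0.24 to -0.17). BAK1 fell by 0.37 ± 0.13 on the log2 scale across lines (adjusted p = 0.0314, lower in 6 of 6 lines). N87 led, at 13.7, 12.3 and 10.4 CPM under lapatinib, against 23.3, 23.7 and 24.6 CPM. The call across lines was lost without H3122, N87, PC9 or RT112 (-0.39 to -0.22) and when only the 2 arms were fitted (-0.36, adjusted p = 0.0833). Within lines, the A375 call (-0.28) was lost without DMSO replicate 2 or vemurafenib replicate 1 (-0.23 to -0.22), and the H3122 call (-0.27) without any of 9 single libraries of the crizotinib, DMSO, 7-day or THZ1 arms (-0.30 to -0.22). BAK1 counts were not whole in 81 of 90 libraries, because reads are shared with similar sequences, so its values are less certain.

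**Figure D3:**
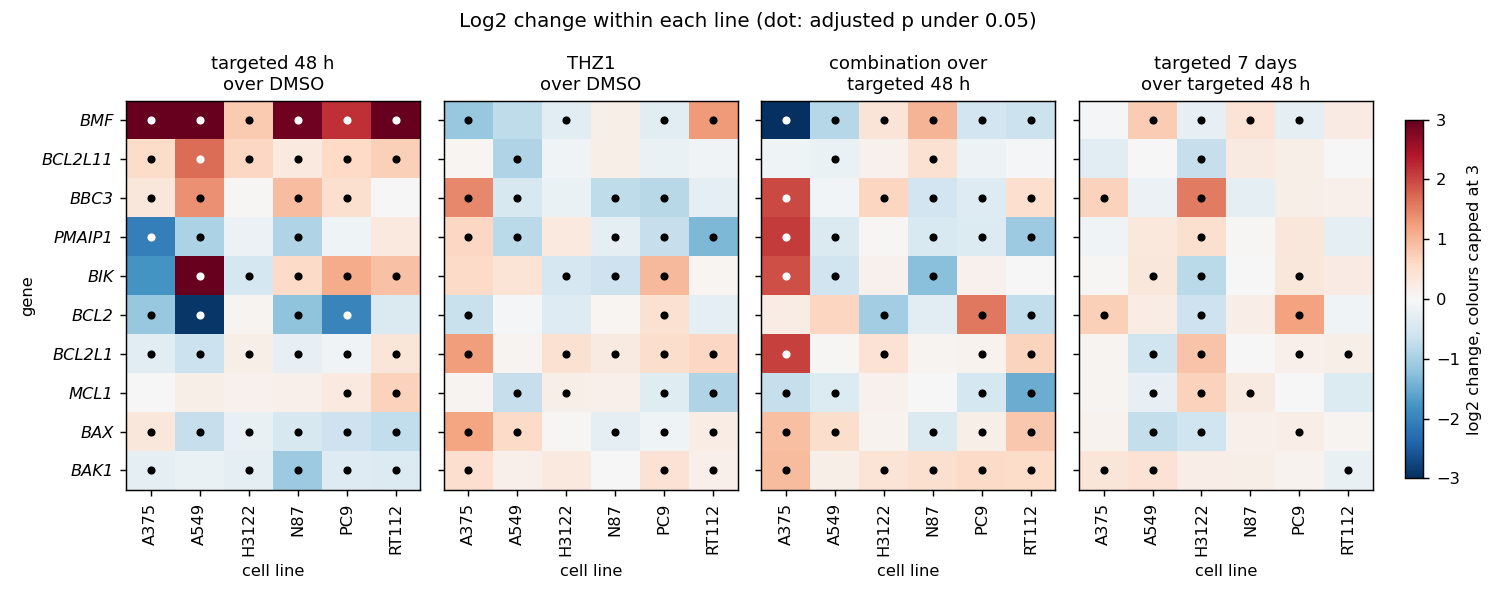
Log2 change of the 10 genes (down) in the 6 lines (across) for 4 comparisons, with red for higher, blue for lower and a dot where the adjusted p was under 0.05. The BMF and BCL2L11 squares are red and dotted in every line under the targeted drugs, while THZ1 and the combination show mixed colours, with A375 the reddest column in the combination.

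Genes that share pathways with the family were counted beside it. Of 9 FOXO factors and targets, 8 rose across lines under the targeted drugs and 0 fell, with a median log2 change of 1.28. They included PIK3IP1, which restrains PI3K (3.29 ± 0.47), the stress protein gene TP53INP1 (2.40 ± 0.31) and KLHL24, a kelch-like adaptor gene (1.79 ± 0.30). Of 12 MAPK output genes, 11 fell and 0 rose (median -1.67), and 18.6% of all genes rose and 18.5% fell. Of 15 caspases and their regulators, 2 rose and 2 fell: BIRC5 (survivin) by -1.98, CYCS (cytochrome c) by -0.86, CFLAR, the FLIP inhibitor of caspase 8, by 0.57 and 1 more. Of 5 ligases and deubiquitinases that set MCL1 stability, the deubiquitinase gene USP9X rose (0.34). Of 7 other BCL2 family genes 4 were tested, and 0 were called in any comparison across lines.

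THZ1 alone asked what transcription kinase inhibition did to the same genes. Across lines 0 of 9 members were called, against 0.0842% of all genes (10 of 11875), and 0 members reached an unadjusted p under 0.05 or were called by DESeq2. Within lines 36 of 60 pairs were called (17 higher, 19 lower), against 41.9% of all pairs (20.6% higher, 21.3% lower). BCL2L1 and BAK1 were higher in 6 of 6 lines, and the other members were higher in some lines and lower in others. The size of the change differed between lines for 10 of 10 members, against 61.4% of all genes.

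BCL2L1 rose after THZ1 in 5 of 6 lines. In A375 it reached 202, 179 and 187 CPM, against 71.8, 72.9 and 74.0 CPM in DMSO (log2 change 1.26 ± 0.05, adjusted p = 1.6e-12). In PC9 it reached 297, 291 and 309 CPM, against 205, 205 and 190 CPM, and in RT112 128, 121 and 121 CPM, against 67.1, 79.6 and 82.6 CPM. H3122 (0.46) and N87 (0.28) also rose. A549 missed the threshold, at 251, 241 and 244 CPM and 229, 226 and 231 CPM in DMSO (0.09 ± 0.04, adjusted p = 0.066). Across lines the change was 0.49 ± 0.25 (adjusted p = 0.476), with the spread between lines as the error.

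MCL1 split the lines after THZ1. It fell in RT112 to 257, 273 and 270 CPM, against 627, 394 and 402 CPM in DMSO (log2 change -0.91 ± 0.19, adjusted p = 0.0011). The highest of these, at 627 CPM, was DMSO replicate 1, and the RT112 THZ1 arm has no replicate 1. MCL1 fell in A549 to 212, 199 and 210 CPM, against 343, 320 and 333 CPM (-0.69 ± 0.10, adjusted p = 9e-06), and in PC9 to 180, 181 and 186 CPM, against 212, 223 and 243 CPM (-0.37 ± 0.06). These are the lines with THZ1 at 100 or 150 nM. In the lines at 25 or 50 nM it did not fall: A375 stood at 538, 563 and 531 CPM and 474, 461 and 484 CPM in DMSO, N87 at 434, 441 and 450 CPM and 377, 372 and 380 CPM, and H3122 at 2183, 2215 and 2234 CPM and 1917, 1902 and 1946 CPM. In all 3 the THZ1 libraries lay above DMSO, and only H3122 was called (0.18), a call lost without any 1 of its 6 THZ1 and DMSO libraries (0.18 to 0.19). With 1 dose per line, dose and line cannot be told apart, and the difference between the 2 sets of lines was not tested.

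The effector genes went up in several lines after THZ1. BAK1 rose in A375, at 47.5, 46.7 and 39.7 CPM, against 32, 26.2 and 28.1 CPM in DMSO (log2 change 0.50 ± 0.09, adjusted p = 9.3e-05), and in PC9, at 57.0, 59.4 and 57.4 CPM, against 41.5, 41.5 and 40.0 CPM (0.43 ± 0.06). Its RT112 call (0.15) was lost without DMSO replicate 1 or THZ1 replicate 3 (0.11 to 0.12), and A549 (0.14), H3122 (0.28) and N87 (0.02) were not called. BAX rose in RT112, at 98.6, 100.1 and 93.2 CPM, against 79.5, 76.8 and 81.5 CPM (0.22 ± 0.05), and fell in N87, at 50.2, 49.0 and 44.2 CPM, against 57.5, 55.5 and 55.7 CPM (-0.30 ± 0.06). The PC9 call for BAX (-0.12) was lost with DESeq2 and without any 1 of 12 libraries (-0.13 to -0.08).

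In A375 BBC3, BAX and PMAIP1 rose under THZ1, while BCL2L11 (0.06) and BIK (0.57) were not called and BMF fell. BBC3 stood at 30.7, 27.5 and 30.7 CPM, against 11.3, 8.99 and 9.86 CPM in DMSO (log2 change 1.45 ± 0.10, adjusted p = 1.1e-09). BAX stood at 213, 228 and 222 CPM, against 88.9, 92.3 and 89.5 CPM (1.18 ± 0.05). PMAIP1 stood at 57.6, 50.3 and 50.2 CPM, against 29.3, 31.3 and 32.9 CPM (0.63 ± 0.21, lost without replicate 2 of either arm, at 0.57 to 0.58). The 3 genes are p53 targets, and of 14 other p53 targets 14 rose in A375 (median log2 change 1.59), against 26.5% of all genes there. A549 had 12 of 14 higher and 2 lower (median 0.69), against 25% and 21.5% of all genes there, and BBC3 fell there to 11.9, 13.2 and 11.8 CPM, against 15.9, 16.3 and 19.2 CPM, and PMAIP1 to 17.0, 13.1 and 13.0 CPM, against 25.4, 24.2 and 24.8 CPM. BAX rose in A549 as well, at 156, 154 and 147 CPM, against 97.5, 104 and 103 CPM.

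In H3122, N87, PC9 and RT112, 9 of 20 pairs of a BH3-only gene and a line were called lower after THZ1 and 2 higher. Of all genes, 1829 of 14905 were called lower in H3122 and 2508 of 15370 in N87. In PC9 4235 of 15311 were called lower, and in RT112 3123 of 15298. Genes called higher numbered 1617, 2164, 3994 and 3208, in the same order of lines. BBC3 fell in N87 (-0.76 ± 0.16) and PC9 (-0.82 ± 0.17). PMAIP1 fell in N87 (-0.28 ± 0.08). It fell in RT112 to 9.75, 8.08 and 9.08 CPM, against 28.2, 18.1 and 18.3 CPM (-1.34 ± 0.23). There DMSO replicate 1, at 28.2 CPM, was the highest, and the THZ1 arm has no replicate 1. In PC9 PMAIP1 fell by 0.70 on the log2 scale, or by 0.43 without DMSO replicate 4, which at 29.5 CPM was the highest. BCL2L11 fell in A549 alone, to 14.0, 16.4 and 13.4 CPM, against 27.4, 27.1 and 27.1 CPM (-0.91 ± 0.09, adjusted p = 1.2e-07). BMF fell in A375 (-1.15 ± 0.24) and H3122 (-0.31 ± 0.05) and rose in RT112, at 5.23, 8.40 and 5.81 CPM, against 2.36, 2.31 and 2.87 CPM (1.29 ± 0.18). The PC9 call for BMF (-0.35) was lost without DMSO replicate 4 or THZ1 replicates 2 or 3 (-0.35 to -0.16). BIK rose in PC9, at 8.27, 7.04 and 7.69 CPM, against 4.51, 3.95 and 2.79 CPM (0.96 ± 0.16, adjusted p = 4.1e-05). It fell in H3122, at 31.7, 33.6 and 29.2 CPM, against 44.2, 42.8 and 46.1 CPM (-0.51 ± 0.08), and in N87, at 16.9, 17.4 and 14.4 CPM, against 24.3, 24.0 and 22.6 CPM (-0.61 ± 0.11).

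The combination was set against the targeted drug alone, to ask what THZ1 changes on top of it. Both comparisons share the targeted 48 h libraries. Across lines 1 of 9 members was called, BAK1, against 8.03% of all genes (954 of 11875). Within lines 42 of 60 pairs were called (22 higher, 20 lower), against 54.9% of all pairs (27.5% higher, 27.4% lower). The change differed between lines for 10 of 10 members, against 73.8% of all genes. All combination libraries lay above all DMSO libraries for BMF in 6 of 6 lines and for BCL2L11 in 5. These arms were not tested against each other, and the share of all genes separated in this way was not counted.

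BMF was cut back most in A375, where combination libraries held 16.6, 16.2 and 19.0 CPM, against 132, 151 and 148 CPM under vemurafenib alone (log2 change -3.22 ± 0.09, adjusted p = 2.4e-16). It was also lower in A549 (11.9, 10.1 and 8.66 CPM, against 18.9, 15 and 19.7 CPM), RT112 (31.9, 27.0 and 30.1 CPM, against 43.8, 51.0 and 48.9 CPM) and PC9 (31.5, 29.1 and 31.0 CPM, against 42.1, 47.7 and 40.4 CPM). N87 and H3122 went up, N87 at 42.9, 36.4 and 42.9 CPM, against 23.7, 16.2 and 18.7 CPM under lapatinib (1.03 ± 0.12), and H3122 at 627, 637 and 640 CPM, against 471, 479 and 509 CPM under crizotinib (0.39 ± 0.05). BMF thus differed between lines in direction as well as size.

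BCL2L11 was close to its level under the targeted drug in most lines. N87 rose, at 38.1, 40.7 and 39.2 CPM in the combination, against 26.6, 29.5 and 27.5 CPM under lapatinib (0.46 ± 0.11, adjusted p = 0.0014). A549 was called lower, at 68.9, 82 and 85 CPM, against 86.9, 87.1 and 84.9 CPM, a call (-0.20) lost without combination replicate 1 or trametinib replicates 2 or 3 (-0.19 to -0.12). Across lines the change was -0.03 ± 0.22 (adjusted p = 0.948).

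With THZ1 added to the targeted drug, MCL1 was lower in RT112, at 305, 285 and 304 CPM, against 1127, 732 and 705 CPM (log2 change -1.48 ± 0.19, adjusted p = 4.9e-06, and -1.21 without BGJ398 replicate 1). It was lower in PC9, at 198, 183 and 176 CPM, against 257, 248 and 253 CPM (-0.52 ± 0.06), and in A549, at 313, 278 and 283 CPM, against 369, 370 and 368 CPM (-0.41 ± 0.10). In A375 the call (-0.70) rested on vemurafenib replicate 1 and was lost without it (-0.29). N87, at 443, 481 and 456 CPM and 429, 467 and 454 CPM under lapatinib, and H3122, at 2583, 2354 and 2454 CPM and 2241, 2284 and 2194 CPM under crizotinib, were not called. Across lines MCL1 changed by -0.52 ± 0.19 (adjusted p = 0.0836), and DESeq2 called it (adjusted p = 0.0461).

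BCL2L1 again ran higher. In A375 the combination gave 263, 284 and 268 CPM, against 55.0, 58.5 and 60.8 CPM under vemurafenib, a log2 change of 2.06 ± 0.05 (adjusted p = 2.3e-16). RT112 held 168, 171 and 167 CPM, against 107, 111 and 112 CPM (0.66 ± 0.06), and H3122 209, 216 and 228 CPM, against 162, 156 and 164 CPM (0.44 ± 0.06). The small PC9 call (0.12) was lost without combination replicate 3 or erlotinib replicate 4 (0.09 to 0.10). A549 and N87 were not called. BCL2 fell in H3122 (-1.05 ± 0.27) and RT112 (-0.74 ± 0.21) and rose in PC9, at 5.13, 5.51 and 6.23 CPM, against 1.37, 1.77 and 2.18 CPM (1.58 ± 0.24).

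**Figure D4:**
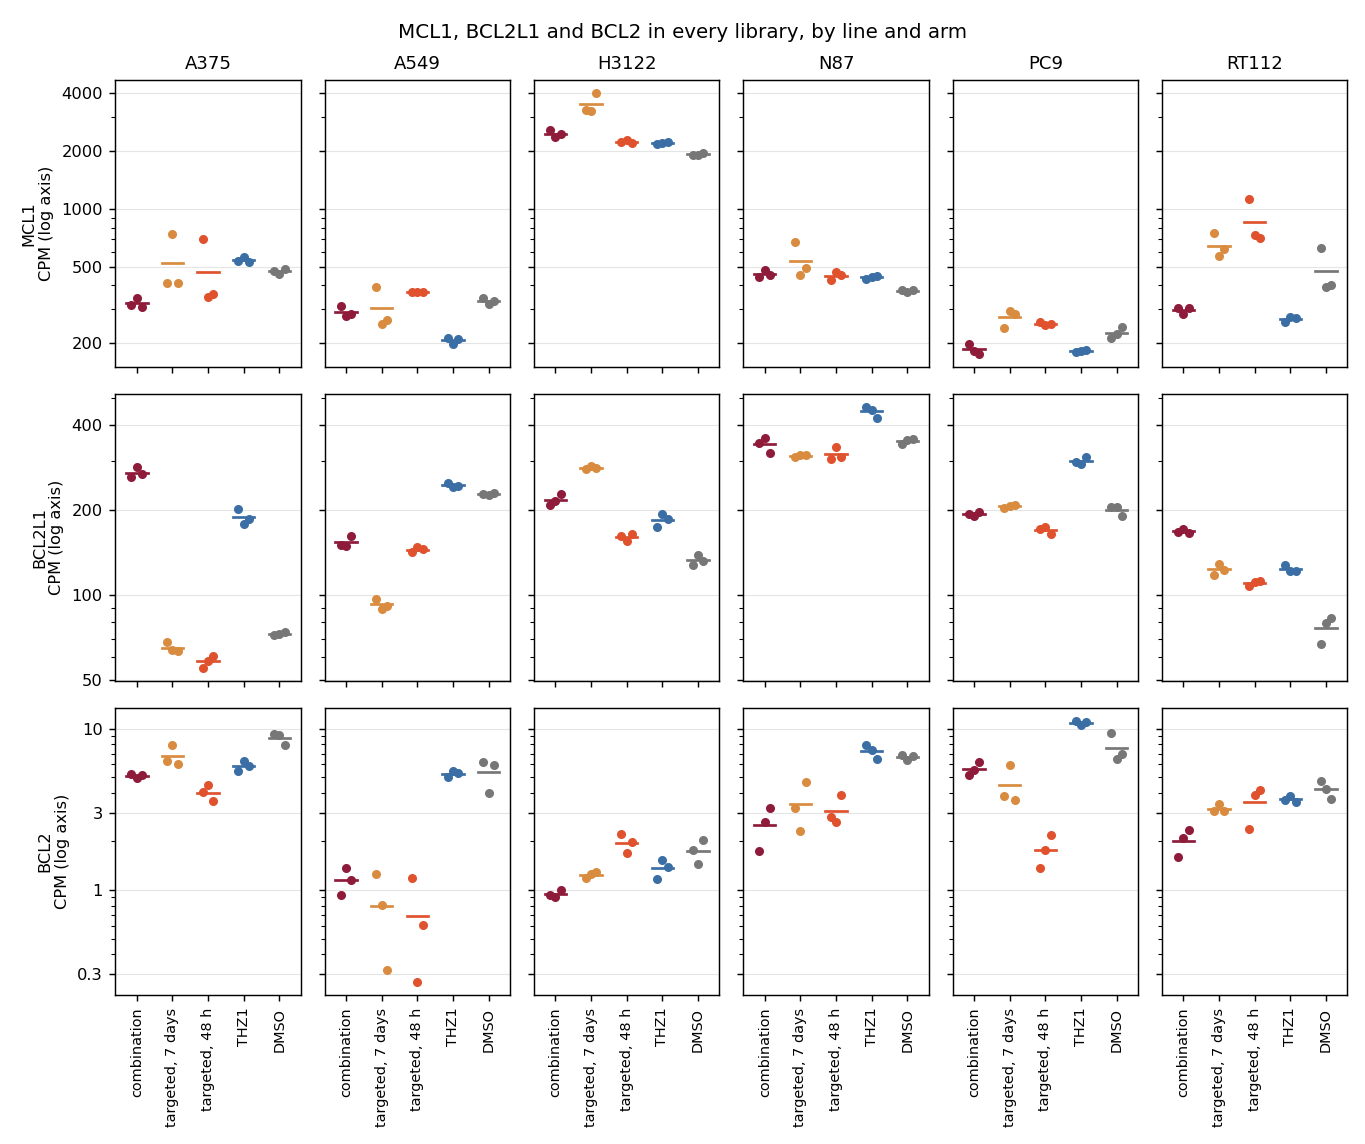
MCL1, BCL2L1 and BCL2 in every library, as CPM on a log axis, by line and arm, with a bar at the mean of 3 libraries. MCL1 in the combination lies below the targeted 48 h arm in A549, PC9 and RT112, while BCL2L1 in A375 stands at 263 to 284 CPM in the combination against 55.0 to 60.8 CPM under vemurafenib.

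BAK1 rose across lines by 0.50 ± 0.13 on the log2 scale in the combination (adjusted p = 0.0215, higher in 6 of 6 lines). In A375 it stood at 51.6, 51.7 and 50.0 CPM, against 21.7, 25.3 and 24.1 CPM under vemurafenib, and in RT112 at 109, 113 and 113 CPM, against 75.1, 85.3 and 76.3 CPM under BGJ398. The call was lost without A375, PC9 or RT112 (0.41 to 0.51) and when only the 2 arms were fitted (adjusted p = 0.0678), and the limit on BAK1 counts applies. BAX rose in 4 lines, most in A375 (233, 239 and 246 CPM, against 114, 110 and 118 CPM) and RT112 (90.3, 87.4 and 88.9 CPM, against 53.8, 52.5 and 52.0 CPM), and fell in N87 (33.6, 34.5 and 30.5 CPM, against 43.3, 42.4 and 43.6 CPM).

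BBC3 rose in A375 to 54.9, 56.1 and 57.1 CPM, against 12.3, 12.7 and 13.0 CPM under vemurafenib (log2 change 1.98 ± 0.09, adjusted p = 6.8e-13), and PMAIP1 to 34.8, 43.0 and 31.2 CPM, against 13.3, 6.51 and 4.84 CPM (2.09 ± 0.27). In A375 14 of 14 p53 targets rose as well (median 1.5), against 35.1% of all genes. RT112 had 12 higher and 1 lower (median 0.69), and A549 11 higher and 1 lower (0.59), and PMAIP1 was called lower in both. Of all genes, 5020 of 15298 were called higher in RT112 and 3012 of 14810 in A549. H3122 had 6 higher and 0 lower, and N87 and PC9 each had 7 higher and 5 lower. Across lines 4 of 14 p53 targets rose, among them FDXR (1.34), TIGAR (1.14) and ZMAT3 (0.65), against 3.7% of all genes. BBC3 also rose in H3122 (0.65 ± 0.12) and RT112 (0.50 ± 0.13) and fell in N87 (-0.57 ± 0.13). A PC9 call (-0.38) was lost without combination replicates 1 or 3 or erlotinib replicate 2 (-0.33 to -0.24). PMAIP1 fell in RT112, at 14.4, 13.0 and 12.9 CPM, against 40.4, 25.5 and 22.8 CPM, and in N87, at 34.3, 32.7 and 28.8 CPM, against 37.4, 46.1 and 44.2 CPM. Its calls in A549 (-0.43) and PC9 (-0.41) were each lost without 3 single libraries, which were A549 combination replicates 2 and 3 and trametinib replicate 4 (-0.41 to -0.35) and PC9 combination replicates 2 and 3 and erlotinib replicate 3 (-0.38 to -0.31). BIK fell in N87, at 18.8, 15.8 and 14.1 CPM, against 39.3, 40.2 and 34.0 CPM, and in A549 (9.31, 8.95 and 9.19 CPM, against 12.2, 13.4 and 14.6 CPM). Only 1 FOXO list gene was called across lines, FOXO4, which fell by 0.63 on the log2 scale, and of the caspase regulators only XIAP, which blocks caspases, fell (-0.36).

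The interaction asked whether the combination differed from the sum of both drugs' log2 changes. Across lines 0 of 9 members and 0 of all genes were called (0%), with 0 members and 256 genes at an unadjusted p under 0.05 and 0 members by DESeq2. Within lines 25 of 60 pairs were called (16 higher, 9 lower), against 34.4% of all pairs (17.7% higher, 16.8% lower). A375 held 8 of the 25, and 50.5% of all genes were called there. There BCL2L1 exceeded the sum by 0.80 ± 0.08 on the log2 scale (adjusted p = 7.2e-08) and PMAIP1 by 1.46 ± 0.35 (adjusted p = 0.0018), and BMF fell short by -2.07 ± 0.28 (adjusted p = 5.9e-06). In RT112 BMF also fell short, by -1.93 ± 0.21, and BAX exceeded the sum by 0.58 ± 0.07. In H3122 BMF exceeded it by 0.70 ± 0.07. The interaction differed between lines for 7 of 10 members, against 57.3% of all genes, and no such difference was called for BCL2L11, BBC3 and BAK1. BBC3 exceeded the sum in 6 of 6 lines (0.19 to 0.83) and was called in 4, and BAK1 in 6 of 6 (0.03 to 0.47), called in 3. The A549 call for BBC3 was lost without DMSO replicate 4, and the N87 call for BAK1 without lapatinib replicate 3.

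The ratio of MCL1 to BCL2L11 counts within a library needs no scaling, and was chosen after its values were seen, so it has no test. In RT112 it was 11 ± 0.89 in the combination, 29.1 ± 1.23 under BGJ398, 17.2 ± 0.476 under THZ1 and 29.96 ± 2.47 in DMSO. In N87 it was 11.7 ± 0.103 in the combination, 16.2 ± 0.329 under lapatinib, 17.4 ± 0.707 under THZ1 and 17.6 ± 0.686 in DMSO. PC9 showed the same order, at 5.47 ± 0.869, 7.03 ± 0.414, 7.69 ± 0.121 and 8.72 ± 0.986 for the combination, erlotinib, THZ1 and DMSO. The combination had the lowest mean of the 48 h arms in 5 of 6 lines, the exception being H3122, at 66.3 ± 1.42 in the combination and 66.2 ± 4.41 under crizotinib. All combination libraries were below all THZ1 and all DMSO libraries in 6 of 6 lines and below all targeted 48 h libraries in 3. For BCL2L11, the divisor, all combination libraries lay above all THZ1 libraries in 6 lines and all DMSO libraries in 5, which by itself lowers the ratio. In N87 MCL1 was not called over lapatinib (log2 change -0.003), while BCL2L11 rose (0.46). The share of other gene pairs separated in this way was not counted. For the ratio of BCL2L1 to BCL2L11 the combination had the lowest mean in 1 line, and all its libraries were below all THZ1 libraries in 5 lines, all DMSO libraries in 2 and all targeted 48 h libraries in 1. In A375 it was 19.4 ± 2.80 in the combination, 4.15 ± 0.413 under vemurafenib, 18.1 ± 2.67 under THZ1 and 7.62 ± 1.01 in DMSO. Per BMF count, the combination had the lowest mean in 3 lines for MCL1 and in 1 line for BCL2L1. In A375 the ratio of MCL1 to BMF was 18.9 ± 2.49 in the combination and 3.35 ± 1.70 under vemurafenib. It was 255.7 ± 3.17 under THZ1 and 123.7 ± 39.9 in DMSO. These ratios have no test either.

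**Figure D5:**
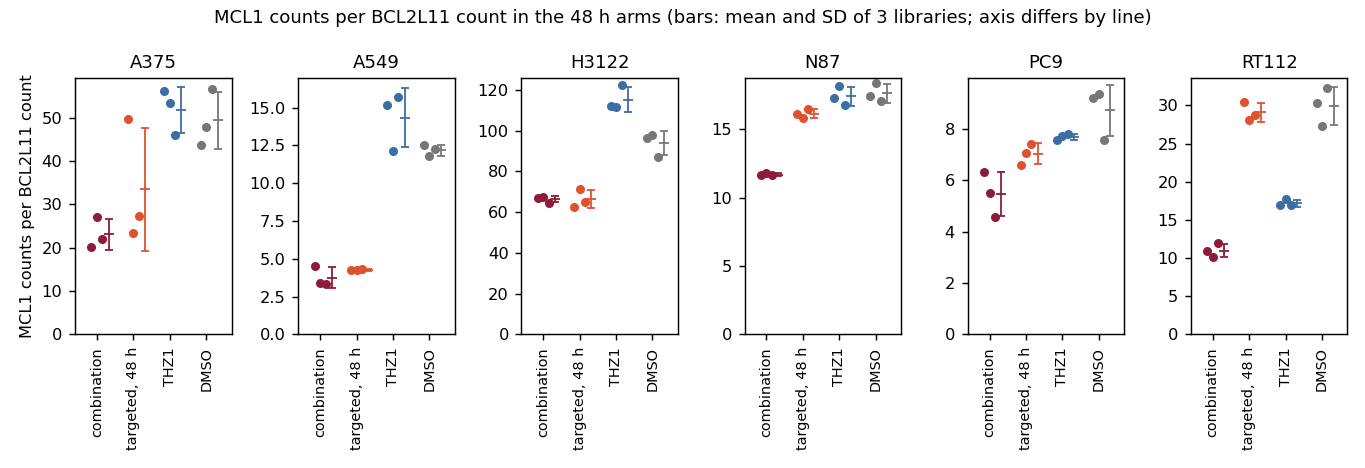
MCL1 counts divided by BCL2L11 counts in each library of the 48 h arms, in a panel with its own axis per line, with the mean and SD of 3 libraries beside the points. The combination has the lowest mean in every line but H3122, as in RT112 at 11 against 29.1 under BGJ398.

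The last comparison set 7 days of targeted drug against 48 h. There is no 7-day vehicle, so time in culture and time under drug cannot be told apart. Across lines 0 of 9 members and 0 of all genes were called (0%), with 0 members and 761 genes at an unadjusted p under 0.05, and DESeq2 called 25 genes and 0 members. Within lines 27 of 60 pairs were called (17 higher, 10 lower), against 47.8% of all pairs (23.8% higher, 24% lower). The change differed between lines for 10 of 10 members, against 71.6% of all genes. H3122 held 9 of the 27, against 63.9% of all genes called in that line.

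In H3122 most members changed between 48 h and 7 days, as did most of all genes there (63.9% called). Its 7-day libraries also differed from each other. Of all pairs of libraries within an arm, replicates 1 and 4 had the highest chi-square per degree of freedom between their counts (23). BCL2L1 stood at 280, 286 and 283 CPM at 7 days, against 162, 156 and 164 CPM at 48 h (log2 change 0.86 ± 0.06, adjusted p = 1.9e-10). MCL1 stood at 3275, 3215 and 4019 CPM, against 2241, 2284 and 2194 CPM (0.69 ± 0.06). BBC3 stood at 99.3, 128 and 128 CPM, against 42.2, 44.6 and 36.9 CPM (1.56 ± 0.12). BCL2L1, MCL1 and BBC3 were thus higher, and the groups did not overlap. BCL2, the scarcest guardian, was lower, at 1.19, 1.26 and 1.29 CPM, against 2.21, 1.71 and 1.98 CPM (-0.62 ± 0.24, adjusted p = 0.0339), a call lost with DESeq2 and without any 1 of 5 libraries (-0.62 to -0.52). BCL2L11 fell to 21.3, 18.7 and 20.9 CPM, against 35.8, 32.1 and 33.7 CPM (-0.70 ± 0.08), beside 19.4 to 22.4 CPM in DMSO. BIK fell to 16.3, 19.9 and 18.4 CPM, against 32, 34.7 and 31.6 CPM, and BAX to 41.2, 45.8 and 42.2 CPM, against 74.5, 64.6 and 61.4 CPM. Of the 12 MAPK output genes, 11 rose and 1 fell in H3122 at 7 days (median 1.46), against 30.5% of all genes higher and 33.4% lower.

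In the other lines 6 of 10 members were called in A549 and 5 in PC9, against 51.3% and 52.9% of all genes there. A375 had 3, N87 2 and RT112 2, against 40%, 42.6% and 37% of all genes. BMF at 7 days was 137, 151 and 148 CPM in A375, against 132, 151 and 148 CPM at 48 h, and in A549 38.7, 27.9 and 22.1 CPM, against 18.9, 15 and 19.7 CPM (0.77 ± 0.16, adjusted p = 0.00043). BCL2 in PC9 stood at 3.83, 5.97 and 3.6 CPM, against 1.37, 1.77 and 2.18 CPM (1.2 ± 0.24), and in A375 at 6.28, 7.87 and 6.08 CPM, against 4.03, 4.45 and 3.54 CPM (0.71 ± 0.16). In A549 BCL2L1 fell to 97.0, 89.4 and 91.6 CPM, against 142, 148 and 146 CPM (-0.61 ± 0.04), and BAX to 36.1, 38.7 and 36.1 CPM, against 65.8, 60.3 and 59.1 CPM (-0.71 ± 0.07). A549 was thus the line in which both an effector and a guardian went on falling. Its 7-day libraries held 6195768 to 6379149 expected counts, against 9879638 to 11862298 at 48 h. They were also less alike than the libraries of its other arms (mean r within the arm 0.985 to 0.986). MCL1 calls at 7 days rested on single libraries in N87, where replicate 1 held 670 CPM beside 450 and 491 CPM (0.26, and 0.11 without it, no longer called). In A549 the MCL1 libraries held 394, 253 and 264 CPM, against 369, 370 and 368 CPM (-0.25), and this call was lost without any 1 of 12 libraries (-0.25 to -0.13) and was -0.47 without the 7-day replicate 1.

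For each member, the genes whose log2 CPM over the 30 line and arm sums was most like it, after each line's mean was subtracted, were found among the 11875 genes tested across lines and, for BIK, the same set. BMF was closest to TP53INP2 (Pearson's r = 0.948) and PLEKHA1 (0.947), and BCL2L11 to MLXIP (0.908) and RETSAT (0.904). BCL2 was closest to SF1 (0.93) and LIN9 (0.911), BAX to TRAPPC2L (0.901) and FBXO22 (0.892), and BAK1 to RNF4 (0.906) and LLPH (0.9). BIK was closest to SMURF1 (0.89) and CDV3 (0.874), BCL2L1 to ARID3A (0.872) and PPP4R3A (0.857), PMAIP1 to SLC38A1 (0.837) and DMKN (0.833), and BBC3 to TOLLIP (0.834) and PLXNB2 (0.825). MCL1 had the loosest neighbours, the unnamed gene ENSG00000233137.1 (0.791) and CSRNP1 (0.783). The 30 points share lines and drugs and are not independent, so these are descriptions.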

How the data were processed

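RNA was sequenced from 90 libraries. Per the submitters' processing notes, the authors aligned reads to hg19 with Bowtie2 2.2.1 and deposited RSEM 1.2.12 expected counts per gene. The sources used here do not name the gene annotation. Between 7.83 and 13.75% of a library's values were not whole, and all were rounded. The members, lists, tests and alternatives were chosen with earlier results of these data known. All 10 members are named, with 2 like genes each, and at most 3 genes per list and comparison, those of largest change among the genes called across lines.

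Within a line, edgeR 4.0.16 (in R 4.3.3) fitted the 15 libraries together, using its quasi-likelihood test, TMM scaling and filterByExpr. Across lines, counts were summed per line and arm, so that the line is the replicate, and line was a term of the fit. Genes needed 1 CPM in 3 libraries of each line. Differences between lines were F tests on all libraries. The call threshold was a Benjamini-Hochberg adjusted p of 0.05. CPM are counts over library totals, and log2 CPM carry a prior count of 2. The alternatives were DESeq2 1.42.0, RLE scaling, other filters, fewer arms, a replicate block, and single libraries or lines left out. Deviations of same-numbered libraries correlated by -0.04 to 0.25 over 24 comparisons, and 0 of the 8 with 3 shared numbers passed 0.1 in every pair. Libraries were therefore not paired. Comparisons with 2 shared numbers could not pass this rule, so pairing was not settled there. Among them was BGJ398 48 h against DMSO in RT112, which held the highest correlation (0.0609 to 0.245). With the replicate block, MCL1 in RT112 was called at 7 days over 48 h (-0.39) and in the interaction (-0.73). The tests were tried on simulated data. A table of Ensembl gene names gave symbols for 47111 of 53893 gene IDs (the other IDs held 1.26% of counts) and GENCODE v29 gave transcript lengths.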

Additional observations from a re-analysis of the deposited data

Results flagged for a closer look

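In 9 of 50 sets of 6 line values, each a member's log2 change in one comparison, the line at one end lay apart by Dixon's test at 95%. Chance alone gives about 1 in 20, and the 6 lines also differ in drug and dose. A375 stood apart in BCL2L1 in the combination over the targeted drug (2.06) and in the interaction (0.8), in PMAIP1 in the same comparisons (2.09 and 1.46), and in BBC3 after THZ1 (1.45). A549 stood apart in BCL2L11 under the targeted drug (1.68) and after THZ1 (-0.91). N87 stood apart in BAK1 under lapatinib (-1.08), and H3122 in BIK at 7 days over 48 h (-0.81). In A375 14 of 14 p53 targets rose after THZ1 and 14 of 14 in the combination over the targeted drug, while 6 were called higher and 3 lower in the interaction. In the combination over the targeted drug 12 of 14 also rose in RT112 and 11 of 14 in A549. The part of the p53 targets in these values was not tested.

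By edgeR F tests, the change differed between lines for 10 of 10 members under the targeted drugs (74.8% of all genes), 10 after THZ1 (61.4%), 10 in the combination over the targeted drug (73.8%), 10 at 7 days over 48 h (71.6%) and 7 in the interaction (57.3%). Differences between lines were thus common over all genes as well.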

How the results depend on the processing

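No call of a member reversed under any setting run. Of the 177 calls within lines, 12 were lost with DESeq2, 3 with RLE scaling and 8 with no filter. With only the arms compared 5 were lost, and without some 1 library 34. A further setting, chosen after seeing the data, lost 2. It left out replicate 1 of each RT112 arm that has it and of the H3122 7-day arm. It kept the A549 7-day libraries, which were less alike than those of that line's other arms. Within and across lines, calls of members gained were 3 with DESeq2, 5 with RLE scaling, 19 with no filter, 15 with only the arms compared and 11 with a replicate block. With that block 6 were lost; members called were then 49, 37, 39, 28 and 29 of 60, against 47, 36, 42, 27 and 25 without it, for the targeted drug, THZ1, the combination, 7 days and the interaction, and the libraries share only a number. Across lines the combination called 1 member, 2 with DESeq2, 0 with only the arms compared and 0 to 1 without 1 line, and 954 genes, 1484 with DESeq2, 192 with only the arms compared and 214 to 1196 without 1 line. THZ1 called 10 genes, 194 with DESeq2, 693 with only the arms compared and 0 to 13 without 1 line. At 7 days over 48 h 0 genes were called, and 25 with DESeq2. The cause was not tested. Low counts limit BIK in A375, with 4 counts over the 3 vemurafenib libraries and 26 over the 3 combination libraries, and BCL2, with 2 to 132 counts per library.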

Other observations

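Some libraries stood above the others of their arm in several members at once. In RT112, replicate 1 was the highest of its arm in MCL1, BCL2L11 and PMAIP1 at 7 days (747, 38.4 and 27.6 CPM), at 48 h of BGJ398 (1127, 37.0 and 40.4 CPM) and in DMSO (627, 20.7 and 28.2 CPM). In A375, 7-day replicate 2 held 739 CPM of MCL1, 17.1 of BCL2L11 and 11.2 of PMAIP1, beside 410 and 411, 8.43 and 9.12, and 5.56 and 4.41 CPM in the other two. In N87, 7-day replicate 1 held 670 CPM of MCL1 and 41.8 of BCL2L11, beside 450 and 491, and 27.4 and 30.1 CPM. In PC9, DMSO replicate 4 held 32 CPM of BCL2L11 and 29.5 of PMAIP1, beside 23.0 and 23.8, and 17.2 and 18.8 CPM. These libraries were picked after their values were seen, and what sets them apart was not tested. The ratio of MCL1 to BCL2L11 counts was 19.5, 23.8 and 25.4 in RT112 at 7 days and 16.03, 16.45 and 16.3 in N87 at 7 days.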
